A study of Mus musculus with 8 samples.

Results

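The myelin genes described here number 9 and were measured in the hippocampus of mice given either a control antibody or one directed at CD4, a co-receptor carried by helper T cells. They are Mbp, Mog, Mag, Mobp, Cnp, Mal, Cldn11, Ugt8a and Aspa. They were taken by name from the spot files, which hold 13 probes for them among 55681 probes that are not controls. All 13 were single spots and were well above background on 8 of 8 arrays, so each of the 9 genes entered the comparison, among 29406 tested probes with 20894 gene names as the files give them. The samples were 4 hippocampal RNA samples per group from female C57BL6/J mice of 8 weeks. Mice of both groups had lived for 4 weeks in an enriched environment, that is, in housing with added stimulation, so no comparison with standard housing can be made here. Nothing in the labels ties a sample to a separate animal or names the control antibody, so the p-values reflect only how far these samples scatter, and that scatter may be technical. Depletion of the cells was not measured in these data.

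Myelin is the membrane that oligodendrocytes wrap around axons in the central nervous system. Its compaction depends on basic proteins such as that of Mbp, its lipid is rich in galactosylceramide, and its outer and innermost layers carry adhesion proteins that face the axon or the neighbouring wrap. In the hippocampus, many myelinated fibres run in the alveus and the fimbria, at the edge of the tissue.

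The array probes are 60 bases long, and where a probe lies decides which transcripts it reads. Mobp matters most here, because its 3 probes gave unlike differences between the groups. The probe A_51_P291224 lies at chromosome 9, 120077006 to 120077065 (mm9), and is shown whole. Its sequence holds 2 reading frames free of stop codons. Such a frame is common, with at least 1 in 79.0% of all tested probes and 1 in A_55_P1958793. The probe A_55_P1958793 lies further along, at 120078400 to 120078459, and the first 30 bases are shown. The files assign both to transcript variant 3 of Mobp. The probe A_55_P1958798 lies at 120085150 to 120085209 and is assigned to transcript variant 1; the 30 bases shown hold the letters of the canonical polyadenylation signal, in capitals. The probes of Cldn11 and Mag hold the same letters and are shown alongside, as is the probe of Aspa, the gene whose groups did not overlap.
Mobp A_51_P291224, bases 1 to 60: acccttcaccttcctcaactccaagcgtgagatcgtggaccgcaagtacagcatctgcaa
Mobp A_55_P1958793, bases 1 to 30: gcccagatcttactccgtatctaaggttga
Mobp A_55_P1958798, bases 30 to 59: taacaagaactcAATAAAtacttgctgact
Cldn11 A_51_P409452, bases 1 to 30: atatgcAATAAAtaatagtacgaagattat
Mag A_55_P2062757, bases 31 to 60: aaagggacatgaAATAAAtgtcctaatgac
Aspa A_51_P259975, bases 1 to 60: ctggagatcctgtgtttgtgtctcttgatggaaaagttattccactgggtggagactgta
The motif AATAAA was searched on both strands. It was found on the printed strand in 3 of the 13 probes and in 12.7% of the 29406 tested probes, and on the other strand in 0 of the 13 and in 4.05%. A match describes the letters of the probe and was not tested as a processing site.

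Signals are given as log2 of the processed spot signal minus the 75th percentile of that array, and differences are anti-CD4 minus control on that scale. Levels of different probes are not comparable. No probe on the array passed the adjusted threshold of 0.05 in limma (0% of 29406 tested), while 3813 had an unadjusted p under 0.05. The 13 myelin probes lay within that: 0 passed, and their adjusted p-values ran from 0.285 to 0.954. Of the 13 probes, 8 had a difference below 0 and 5 above, with a median of -0.14, where 48.9% of all tested probes lay below 0 and the median of all was 0.0046. An unadjusted p under 0.05 with a lower anti-CD4 mean was seen for 3 of the 13 probes, those of Mog, Ugt8a and Aspa, against a background of 6.99% of all tested probes. The groups did not overlap for 1 of the 13 probes, with anti-CD4 lower, where 8.21% of all tested probes did not overlap in either direction and 4.43% with anti-CD4 lower.

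All 8 arrays lay on 1 slide, with the anti-CD4 arrays in its first row and the controls in the second, so that row and group cannot be told apart. On each array 51.1% to 54.3% of the probes cleared the background, 0 were saturated, and arrays correlated at 0.986 to 0.996. Flagged spots numbered 98 to 124 per control array and 127 to 179 per anti-CD4 array. The number of arrays limits the precision. Cd4, measured by 1 tested probe, differed by 0.02 (adjusted p = 0.948, limma).

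**Figure D1:**
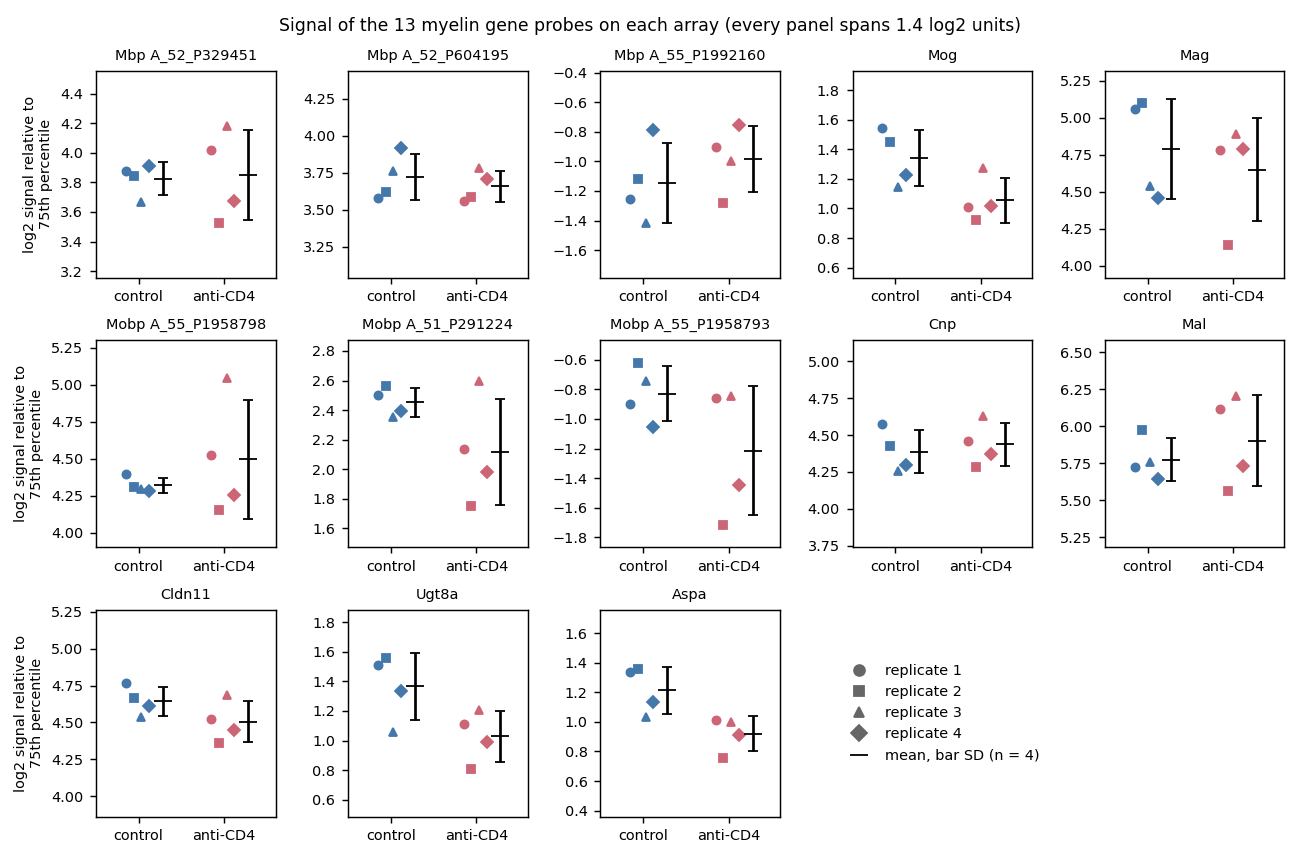
Log2 signal relative to the array's 75th percentile (vertical axis) of each of the 13 probes in the control and the anti-CD4 group, 1 point per array, with the mean and SD of each group (n = 4). Aspa is the only panel in which the groups do not overlap; Mobp A_55_P1958798 spreads from 4.15 to 5.05 in the anti-CD4 group and from 4.28 to 4.40 in the controls.

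The smallest p-values among the 9 genes belonged to Aspa and Ugt8a, both enzymes of myelin lipid and its substrates. Aspa encodes aspartoacylase, the oligodendrocyte enzyme that splits N-acetylaspartate into aspartate and acetate, a carbon source for lipid synthesis. Its probe, at chromosome 11, 73119051 to 73119110 (mm9, minus strand), gave a signal of 1.34, 1.36, 1.03 and 1.13 on the control arrays, replicate 1 to 4, and of 1.01, 0.76, 1.0 and 0.91 on the anti-CD4 arrays, in the same order. All 4 anti-CD4 values lay below the lowest control, with anti-CD4 replicate 1 only just below control replicate 3. The means were 1.21 ± 0.16 and 0.92 ± 0.12 (SD, n = 4), a difference of -0.29 ± 0.10 (SE), which is larger than the SD of either group but did not pass adjustment (adjusted p = 0.285, limma). The control mean was 1.23-fold the anti-CD4 mean.

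Ugt8a encodes the galactosyltransferase that makes galactosylceramide, the characteristic glycolipid of myelin. The Ugt8a probe, at chromosome 3, 125568995 to 125569054 (minus strand), read 1.51, 1.56, 1.06 and 1.34 in the controls and 1.11, 0.81, 1.21 and 0.99 in the anti-CD4 samples. The groups overlapped through control replicate 3, which lay below anti-CD4 replicates 1 and 3. The difference was -0.34 ± 0.13 (SE; adjusted p = 0.334, limma), with the control mean 1.26-fold the anti-CD4 mean.

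Among the surface and adhesion proteins, Mog came closest to Aspa and Ugt8a. Mog encodes a glycoprotein of the outermost myelin surface and is expressed late in oligodendrocyte maturation. The Mog probe, at chromosome 17, 37148277 to 37148336 (minus strand), read 1.54, 1.45, 1.15 and 1.22 in the controls and 1.01, 0.92, 1.27 and 1.01 in the anti-CD4 samples. Anti-CD4 replicates 1, 2 and 4 lay below every control, and replicate 3 lay among the controls. The difference was -0.29 ± 0.11 (SE; adjusted p = 0.347, limma). With each array left out in turn, the differences of Mog, Ugt8a and Aspa ran from -0.36 to -0.22, from -0.44 to -0.27 and from -0.36 to -0.24. The difference of Aspa was -0.17 after normexp background correction and -0.19 with the values of the authors' deposited table.

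Mag encodes the myelin-associated glycoprotein, which sits on the innermost wrap and binds axonal gangliosides and the Nogo receptor. The Mag probe, at chromosome 7, 31684202 to 31684261 (minus strand), read 5.06, 5.10, 4.54 and 4.46 in the controls and 4.79, 4.14, 4.89 and 4.79 in the anti-CD4 samples. Within the controls, replicates 1 and 2 stood well above replicates 3 and 4, and within the anti-CD4 group replicate 2 stood alone at the bottom. The difference of -0.14 ± 0.21 (SE; adjusted p = 0.80, limma) was smaller than the spread in either group, and without anti-CD4 replicate 2 it was 0.03.

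Cldn11 encodes claudin 11, the tight-junction protein that seals the spiral between myelin wraps. Its probe, at chromosome 3, 31062922 to 31062981, read 4.76, 4.66, 4.54 and 4.61 in the controls and 4.53, 4.36, 4.68 and 4.45 in the anti-CD4 samples. Anti-CD4 replicates 1, 2 and 4 again lay below every control, and replicate 3 was above 3 of the 4 controls. The difference was -0.14 ± 0.09 (SE; adjusted p = 0.526, limma). Claudin 11 is also made by cells of the meninges. The 7 genes of a meningeal list had a mean log2 signal of 0.29 to 1.17 in the controls, lowest in control replicate 3, and 0.74 to 1.07 in the anti-CD4 samples; their part in the Cldn11 values was not tested.

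Mal, Cnp and Mbp had small positive or mixed differences. Mal encodes a small four-pass membrane protein of lipid rafts that is found in compact myelin and also in T lymphocytes. Its probe, at chromosome 2, 127458976 to 127459035 (minus strand), read 5.72, 5.98, 5.76 and 5.64 in the controls and 6.11, 5.56, 6.20 and 5.73 in the anti-CD4 samples. Anti-CD4 replicates 1 and 3 lay above every control and replicate 2 below every control, so the difference of 0.13 ± 0.15 (SE; adjusted p = 0.744, limma) lay within the spread. It ran from 0.03 without anti-CD4 replicate 3 to 0.24 without anti-CD4 replicate 2. Of 7 T lymphocyte genes, 3 passed the filter on dim probes, Cd3e, Cd4 and Lck, while Cd3d, Cd3g and Cd2 were well above background on no array.

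Cnp encodes the cyclic nucleotide phosphodiesterase of non-compact myelin, which keeps cytoplasmic channels open. Its probe, at chromosome 11, 100442617 to 100442676, read 4.57, 4.43, 4.25 and 4.30 in the controls and 4.46, 4.29, 4.63 and 4.37 in the anti-CD4 samples. The groups overlapped, although anti-CD4 replicate 3 lay above every control and control replicate 3 below every anti-CD4 sample, and the difference was 0.05 ± 0.10 (SE; adjusted p = 0.862, limma; 95% confidence interval -0.18 to 0.28). An interval of this width leaves room for a change of either sign.

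Mbp, on chromosome 18, encodes the basic protein that holds the cytoplasmic faces of compact myelin together. The gene also has an upstream promoter that gives longer transcripts, named golli, found in neurons and lymphoid cells as well as in oligodendrocytes. The probe A_52_P329451, which spans exons between 82742266 and 82744570, read 3.88, 3.84, 3.67 and 3.91 in the controls and 4.02, 3.53, 4.18 and 3.68 in the anti-CD4 samples. The anti-CD4 values spread on both sides of the controls, and the difference was 0.03 ± 0.14 (SE; adjusted p = 0.954, limma). The probe A_52_P604195, at 82727929 to 82727988, differed by -0.06 ± 0.09 (adjusted p = 0.809), with anti-CD4 values of 3.56 to 3.78 and control values of 3.58 to 3.92.

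The furthest upstream Mbp probe, A_55_P1992160 at 82691469 to 82691528, read -1.26, -1.12, -1.42 and -0.79 in the controls and -0.91, -1.28, -0.99 and -0.76 in the anti-CD4 samples. Its difference was 0.16 ± 0.15 (SE; adjusted p = 0.677, limma), and the groups overlapped. Its array order was unlike that of the exon-spanning probe: control replicate 4 was the highest control on both, but anti-CD4 replicate 3, the highest of all on the exon-spanning probe, lay below anti-CD4 replicates 1 and 4 on the upstream one.

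**Figure D2:**
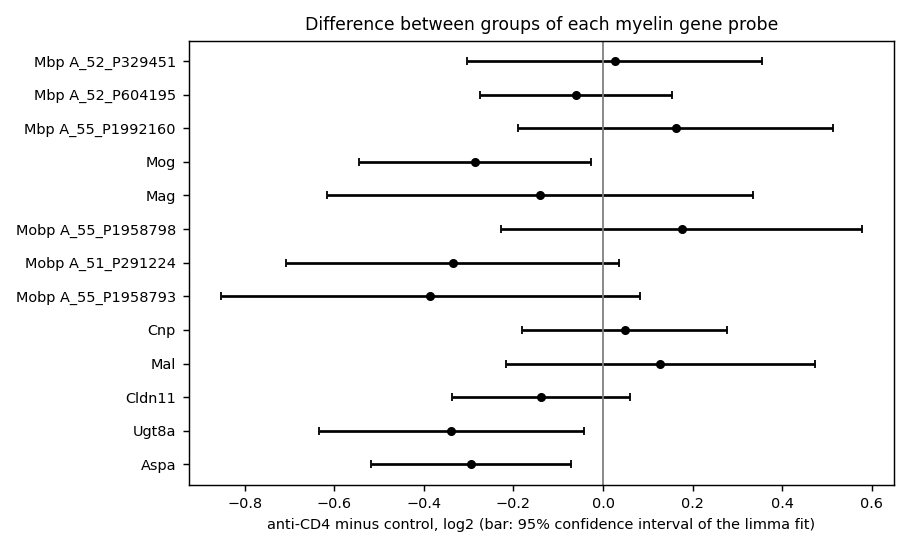
Difference of each of the 13 probes between the groups, anti-CD4 minus control in log2 (horizontal axis), with the 95% confidence interval of the limma fit. The intervals of Mog, Ugt8a and Aspa lie below 0 before adjustment, and the 3 Mobp probes lie on both sides of 0.

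Mobp encodes small basic proteins of the major dense line of myelin, in several splice forms. Its far 3′ probe, A_55_P1958798, read 4.40, 4.31, 4.30 and 4.28 in the controls and 4.53, 4.15, 5.05 and 4.26 in the anti-CD4 samples. The controls lay close together and anti-CD4 replicate 3 stood far above the rest. The difference was 0.18 ± 0.18 (SE; adjusted p = 0.694, limma), and without anti-CD4 replicate 3 it was -0.0087.

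The 2 Mobp probes assigned to variant 3 lay on the other side of 0. A_51_P291224 read 2.51, 2.56, 2.35 and 2.39 in the controls and 2.14, 1.75, 2.59 and 1.98 in the anti-CD4 samples, a difference of -0.34 ± 0.16 (SE; adjusted p = 0.423, limma). A_55_P1958793 read -0.90, -0.62, -0.75 and -1.05 in the controls and -0.86, -1.72, -0.84 and -1.44 in the anti-CD4 samples, a difference of -0.39 ± 0.21 (SE; adjusted p = 0.459, limma). On both probes anti-CD4 replicates 2 and 4 lay below every control; replicate 1 did so on the first probe only, and replicate 3 on neither. With each array left out, the first probe differed by -0.49 to -0.21 and the second by -0.51 to -0.22, both nearest 0 without anti-CD4 replicate 2; with the values of the authors' deposited table the second differed by -0.22.

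Set against each other within an array, 2 of the 3 pairs of Mobp probes separated the groups, and 0 of the 3 pairs of Mbp probes did (adjusted p = 0.426 to 0.799, limma). This comparison was added after the values were seen, for the 7305 pairs of tested probes that share a gene, with 4635 genes among them, the dimmer probe over the brighter. The log2 ratio of A_51_P291224 to A_55_P1958798 was -1.89, -1.74, -1.94 and -1.89 in the controls and -2.39, -2.40, -2.46 and -2.27 in the anti-CD4 samples. The 2 groups of 4 did not overlap, and the gap between them was wider than the range within either. The ratio differed by -0.51 ± 0.07 (SE), a change of 1.43-fold, and ranked 4 of 7305 pairs by p, without passing adjustment over all pairs (adjusted p = 0.0950, limma). No pair passed (0% of 7305). The groups did not overlap for 11.3% of all pairs, and 55.6% of all pairs had a ratio difference below 0.

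The ratio of the other variant 3 probe, A_55_P1958793, to A_55_P1958798 also did not overlap between the groups. It lay between -5.34 and -4.93 in the controls and between -5.89 and -5.38 in the anti-CD4 samples, and differed by -0.56 ± 0.14 (SE; adjusted p = 0.129, limma). These 2 ratios share the far 3′ probe and are not independent. The ratio of the 2 variant 3 probes to each other differed by -0.05 ± 0.13 (adjusted p = 0.869). With each array left out, the first ratio differed by -0.55 to -0.47 (adjusted p = 0.114 to 0.212, limma). The second differed by -0.67 to -0.49 (adjusted p = 0.131 to 0.252, limma). With the values of the authors' deposited table the first ratio differed by -0.44 and passed (adjusted p = 0.0453, limma). It was 1 of 48 pairs that did. The second ratio differed by -0.35 there and did not pass (adjusted p = 0.188, limma). The first ratio passed under no other alternative. Its adjusted p was 0.0558 after normexp background correction and 0.0997 after quantile normalization (limma).

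**Figure D3:**
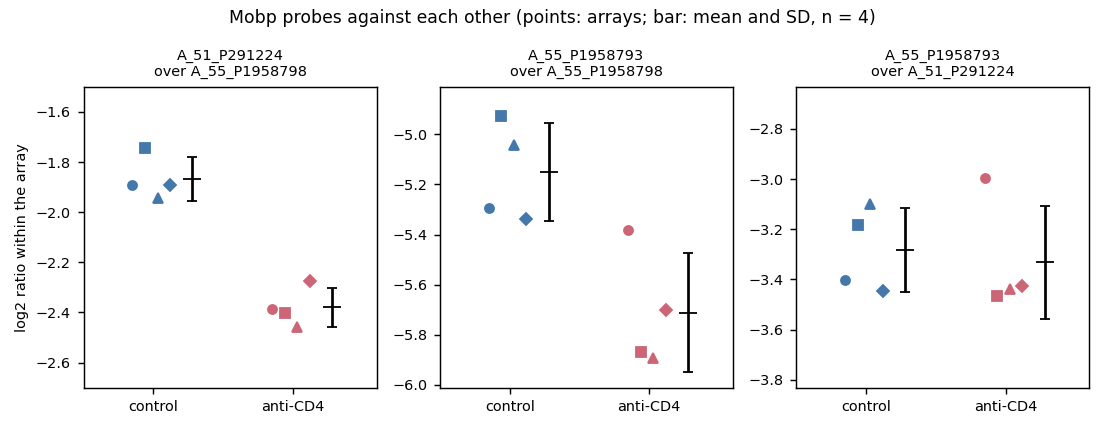
Log2 ratio of 2 Mobp probes within an array (vertical axis; each panel spans 1.2 log2 units) in the control and the anti-CD4 group, 1 point per array, with mean and SD (n = 4). Both ratios over A_55_P1958798 separate the groups, with anti-CD4 lower, while the ratio of the other 2 probes overlaps.

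Probe position along the transcript can carry the quality of RNA or of its amplification. Over 3058 pairs of probes on 1 accession at least 500 bases apart, the median log2 ratio of the upstream to the downstream probe was -1.77 to -1.72 on the control arrays and -1.78 to -1.71 on the anti-CD4 arrays. The median difference between the groups was -0.0084, and 52.1% of the pairs lay below 0. The 2 Mobp ratios that separated the groups pair probes assigned to different transcript variants, so they are not among the 3058. A position effect on those ratios was not tested. The 3 Mobp probes were not measured by another method here.

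The share of differences below 0 varied with the brightness of the probe. Among the 3455 tested probes with a mean level of 3.5 to 6.5, 38.9% had a difference below 0 and 2.95% also an unadjusted p under 0.05; this class holds probes of Mbp, Mag, Mobp, Cnp, Mal and Cldn11. Among the 6077 probes from 0.5 to 2.5, which include those of Mog, Ugt8a and Aspa, 49.6% had a difference below 0 and 6.68% also an unadjusted p under 0.05.

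The 9 genes shared part of their variation from array to array, some pairs far more than others. Over their 36 pairs, Pearson's r across the 8 arrays had a median of 0.68. Among Mog, Cldn11, Ugt8a and Aspa it was 0.86 to 0.98. Between Mobp or Mal and Mog, Ugt8a or Aspa it was 0.04 to 0.26. With the brightest probe of each gene centred over the 8 arrays, the mean of the 9 genes was 0.17, 0.16, -0.11 and -0.04 on the control arrays and 0.03, -0.31, 0.21 and -0.12 on the anti-CD4 arrays, each in replicate order. Anti-CD4 replicate 2 was the lowest array for 8 of the 9 genes, and anti-CD4 replicate 3 was the highest for 4 of them, Mbp, Mobp, Cnp and Mal. The highest and the lowest array thus belonged to the same group. Aspa and Ugt8a stayed near their own means in anti-CD4 replicate 3, at -0.07 and 0.01 against 0.64 for Mobp, 0.37 for Mal and 0.35 for Mbp. Control replicate 3 was below the gene's mean for 9 of 9 genes. The same counts over all tested genes are not given here.

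**Figure D4:**
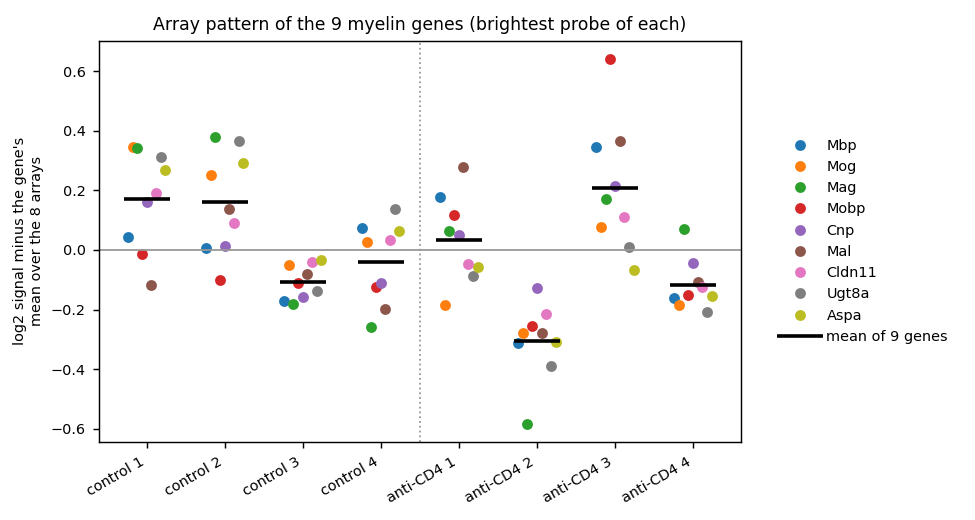
Log2 signal of each of the 9 genes minus that gene's mean over the 8 arrays (vertical axis), by array, with the mean of the 9 genes as a bar. Anti-CD4 replicate 2 lies below 0 for all 9 genes and anti-CD4 replicate 3 above 0 for 8 of 9; Mog, Ugt8a and Aspa are highest in control replicates 1 and 2.

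The counts of myelin probes depended on single arrays. Without anti-CD4 replicate 3, 11 of the 13 probes had a difference below 0, the median was -0.20, and 6 had an unadjusted p under 0.05, as did 4613 of all 29406 probes in that fit. Without anti-CD4 replicate 2, 7 of 13 lay below 0, the median was -0.04 and 1 had an unadjusted p under 0.05, as did 2774 of all probes. The number with an unadjusted p under 0.05 was also 1 when control replicate 1 was left out (3321 of all probes; median of the 13 -0.10), when control replicate 2 was (3145; -0.09) and when anti-CD4 replicate 4 was (2720; -0.12). The smallest adjusted p of a myelin probe across all these was 0.138 (limma).

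Lists of other cell types and regions were read beside the myelin genes. No list was tested as a whole, and 0 of their genes passed adjustment. Of all tested probes 48.9% had a difference below 0. The medians of the astrocyte, microglia, endothelial and interneuron lists lay near 0, at 0.075, 0.070, 0.080 and -0.042. Of 7 dentate granule genes 6 had a difference below 0 (median -0.30), and of 5 pyramidal neuron genes 4 did (median -0.28), medians further from 0 than that of the myelin probes. Of 6 tested thalamus and habenula genes 6 had a difference above 0 (median 0.21), and the list's mean log2 signal did not overlap, at 0.37 to 0.546 in the controls and 0.550 to 0.83 in the anti-CD4 samples. Of 6 tested striatal genes 5 had a difference above 0 (median 0.24). In anti-CD4 replicate 2 the pyramidal list had its lowest mean log2 signal, 2.74 against 2.92 to 3.42 on the other arrays, and the dentate list its lowest, -1.38 against -1.19 to -0.67. The striatal list was highest there, at 1.24 against 0.58 to 1.02. The 8 choroid plexus genes had a summed level of 2.22 to 351 in the controls and 4.47 to 421 in the anti-CD4 samples and had higher anti-CD4 group means for 8 of 8 genes, with a median difference of 1.34; their mean log2 signal was above 2 on control replicates 1 and 4 and anti-CD4 replicates 2, 3 and 4, and below 0 on the other 3 arrays. A lower level of myelin RNA was not established, as 0 of the 13 probes passed adjustment. The summed level of the 9 genes was 158 to 187 in the controls and 139 to 212 in the anti-CD4 samples. This sum is weighted to the brightest probes, that of Mal above all, and Mog, Ugt8a and Aspa add little to it. The mean log2 signal of the 9 genes was 3.37 to 3.64 in the controls and 3.17 to 3.68 in the anti-CD4 samples. The number of oligodendrocytes and the myelin RNA per cell cannot be told apart in bulk tissue. The part of these lists in the myelin values was not tested.

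Related genes were read from lists, with 1 probe a gene. Of 22 other genes of the myelin sheath, 20 had a difference below 0 and 2 above, with a median of -0.09. Of all tested probes 48.9% lay below 0. Of the 22 genes 0 passed, and 1 had an unadjusted p under 0.05, with anti-CD4 lower, where 6.99% of all tested probes did. Groups without overlap were seen for the same 1 gene, also lower, where 4.43% of all tested probes had them. That gene was Car2, the carbonic anhydrase of oligodendrocytes, whose groups did not overlap at 4.295 to 4.56 in the controls and 4.11 to 4.286 in the anti-CD4 samples (difference -0.23 ± 0.08 SE; adjusted p = 0.300, limma). Ndrg1 differed by -0.16, Sirt2, a deacetylase of the sheath, by -0.14 and Hapln2, a link protein of the node of Ranvier, by -0.25.

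Of 13 genes of myelin lipid metabolism, 9 had a difference below 0 and 4 above, with a median of -0.07; 0 passed, and an unadjusted p under 0.05 was seen for 4 lower and 1 higher, where 6.99% and 5.98% of all tested probes were. Cers2, the ceramide synthase for very long acyl chains, differed by -0.37 ± 0.12 (SE; adjusted p = 0.273, limma). Galc, which breaks galactosylceramide down, differed by -0.25, and Acss2, which makes acetyl-CoA from acetate, by -0.19, both with groups that did not overlap; Degs1, which makes the double bond of ceramide, was the other gene separated lower, at -0.16. Acly, which makes acetyl-CoA from citrate, lay on the other side at 0.21, also without overlap (adjusted p = 0.302). The background for groups without overlap was 4.43% lower and 3.77% higher.

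Of 10 oligodendrocyte regulators, 9 were tested and Myrf was not, being below the filter. Of these 9, 6 differences lay below 0 and 3 above, with a median of -0.09; 0 passed. An unadjusted p under 0.05 (limma) with anti-CD4 lower was seen for 3 of the 9, where 6.99% of all tested probes had it. Olig1, a helix-loop-helix factor of the lineage, differed by -0.33 ± 0.11 (adjusted p = 0.276, limma), St18 by -0.53, Sox10, the factor that drives myelin genes, by -0.25 (adjusted p = 0.364) and Zeb2 by -0.34. The mean log2 signal of the list was 0.4497 to 0.5118 in the controls and 0.2378 to 0.4458 in the anti-CD4 samples. These ranges did not overlap, by a narrow gap, while 0 of the 9 genes had groups without overlap. Of all the lists, only this and the thalamus and habenula list had ranges without overlap. The other myelin sheath list lay at 2.98 to 3.17 in the controls and 2.86 to 3.05 in the anti-CD4 samples. The lipid list lay at 2.068 to 2.175 in the controls and 1.964 to 2.071 in the anti-CD4 samples.

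Of 14 genes of oligodendrocyte precursors, 8 had a difference above 0 and 6 below, with a median of 0.05, and 0 passed; 48.9% of all tested probes lay below 0. Cacng4 differed by 0.35 (adjusted p = 0.284, limma), Lhfpl3 by 0.20, Vcan by -0.11 and Cspg4, the NG2 proteoglycan, by 0.11. Pdgfra, the growth factor receptor that defines these cells, differed by 0.06 (adjusted p = 0.788). Whether the precursor list differs from the myelin genes was not tested.

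Of 12 genes of the contact between axon and myelin, 11 were tested, and 7 lay below 0 and 4 above, with a median of -0.05; 0 passed. Cntn2, the adhesion protein of the juxtaparanode made by both axon and oligodendrocyte, read -2.65, -2.49, -2.59 and -2.45 in the controls and -2.75, -3.01, -3.14 and -3.03 in the anti-CD4 samples. The groups did not overlap, and the difference was -0.44 ± 0.09 (SE; adjusted p = 0.195, limma). The groups also did not overlap for Cntn1 and Lingo1, with anti-CD4 higher, so that 1 of the 11 genes was separated lower and 2 higher, where 4.43% and 3.77% of all tested probes were. Cntn1 differed by 0.15. Lingo1, a Nogo receptor partner, differed by 0.67, but was well above background on only 4 of 8 arrays, the least that the filter allows, and may have passed it only through the group where it is high. Nfasc, a cell adhesion molecule of the node and paranode, differed by -0.17.

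**Figure D5:**
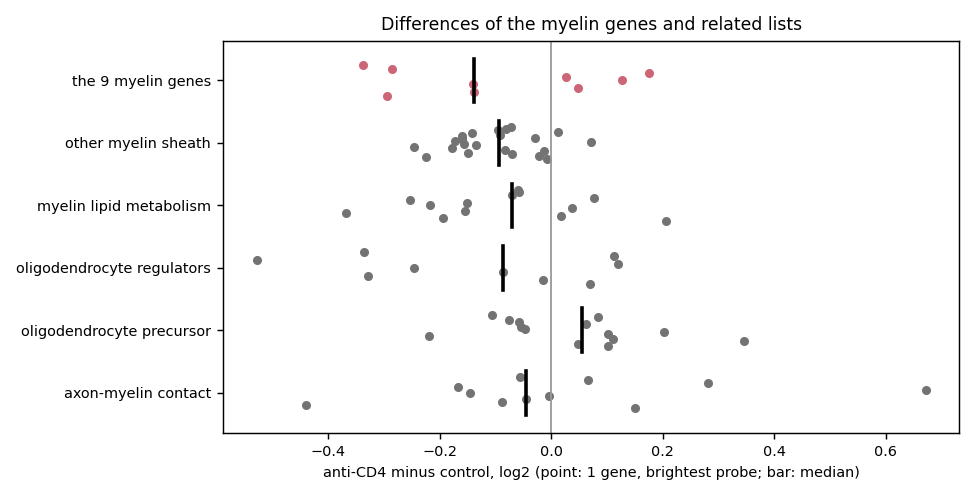
Difference of each gene, anti-CD4 minus control in log2 (horizontal axis), for the 9 myelin genes and 5 related lists, 1 point per gene by its brightest tested probe, with the median as a bar. The medians of the myelin, lipid, regulator and contact lists lie between -0.14 and -0.05 and that of the precursor list at 0.05.

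Genes whose array pattern was most like the mean of the 9 were ranked by Pearson's r over the 8 arrays among 14250 named genes. They were Atpsckmt (r = 0.98), Armc3 (0.97), Cmtm5 (0.96), Zfp474 (0.95), Lbr (0.95), Rarres2, Gab1 and Adamts1 (0.94 each). Cmtm5, an oligodendrocyte membrane protein, was the only gene of these from the related lists, and Trf, transferrin, ranked 15 with 0.93. All of these values share the same 8 hybridisations, the ranking picks the highest of many values, and 26 genes had r above 0.9.

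The RefSeq promoter table (GRCm38.p6) held 10 start sites for 8 of the 9 genes. The bases before each start, to position -250, were searched on both strands for ACAAAG and also for AACAAT and for ACAATG, forms of the site bound by SOX proteins; the last 2 can overlap each other. ACAAAG was found for 3 of the 8 genes, Cnp, Mag and Mobp, and in 16.5% of 32851 promoters. AACAAT was found for 1, Aspa, and in 9.42%, and ACAATG for 0, and in 10.69%. A gene counted if any of its start sites matched, and Mag has more than 1. Counts of genes and shares of promoters are therefore unlike measures. Mobp held 6 matches of the first, all on the reverse strand as CTTTGT, and was the only 1 of the 32851 promoters with 6 or more. They lie in a T-rich stretch, shown here because Mobp was the gene whose probes parted, with the matches in capitals, at chr9:120149492-120149641 (plus strand), the first 150 bases of that window.
Mobp: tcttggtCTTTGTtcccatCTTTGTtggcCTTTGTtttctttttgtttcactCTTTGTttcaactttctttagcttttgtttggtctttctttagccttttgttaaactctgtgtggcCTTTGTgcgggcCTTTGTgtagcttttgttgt
A match is a description of letters, not evidence of binding. A link between these matches and the Mobp probe ratios was not tested.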

How the data were processed

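Spot intensity was deposited as scanner output of Agilent Feature Extraction 10.7.3.1 on design 028005, with coordinates on mm9, per the file headers. The processed intensity was background-subtracted and detrended within the array, per the file headers. The authors' deposited table holds log2 values of the same probes; each column ranks probes as that array's median spot signals do, the columns had medians of 7.83, and beyond limma, named in the submitters' processing notes, how it was made is not stated in the labels. Here, spots of a probe were averaged without outlier-flagged spots, log2 signals were set against each array's 75th percentile, and probes well above background on 4 or more of 8 arrays were tested, each probe as its own row, two-sided, in limma 3.58.1 (R 4.3.3); p-values were adjusted over all 29406 probes by the Benjamini-Hochberg method. Lists used the brightest tested probe of a gene, named through RefSeq accessions (27592 probes), symbols (3498) or synonyms (393). Genes named were all members, up to 4 of each related list by p, fixed look-ups, and the 8 most alike in pattern. Some genes that this rule covers are not reported here. The members and lists were chosen with earlier results of these data known. The fits were tested on simulated data. Alternatives covered normalization, background, filters, probe choice, replicate block, empirical Bayes options, weights, the authors' table and each array left out; the probe ratios, brightness classes and transcript positions were added after seeing the data.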

Additional observations from a re-analysis of the deposited data

Results flagged for a closer look

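In 26 groups of 4 values, the 13 probes in each group, a single array stood apart from the other 3 by a gap test in 1 (3.85%), where chance gives about 1 in 20. It was Mag in anti-CD4 replicate 2, at 4.14, against 4.79 to 4.89 in the other anti-CD4 samples.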

How the results depend on the processing

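None of the 13 myelin probes passed the adjusted threshold in limma under any alternative, and their median difference stayed between -0.20 and -0.04. Over all probes the count past the threshold was 2 with trend and robust empirical Bayes and 2 with the authors' table, the same unnamed probes A_55_P2062886 and A_55_P2172779 in both, and 0 to 2 with an array left out, the 2 being Trh and Esr1 without anti-CD4 replicate 3. Some small differences changed sign. Mbp A_52_P329451 was -0.040 with array weights and ran from -0.085 to 0.13 with an array left out, being -0.03 without control replicate 3, -0.03 without anti-CD4 replicate 1 and -0.085 without anti-CD4 replicate 3. Mbp A_52_P604195 ran from -0.11 to 0.0062 (the latter without control replicate 4). Cnp was -0.0023 with the authors' table and ran from -0.016 (without anti-CD4 replicate 3) to 0.11. Mobp A_55_P1958798 ran from -0.0087 (without anti-CD4 replicate 3) to 0.29, and Mag from -0.25 to 0.031 (without anti-CD4 replicate 2). The ratio of the 2 variant 3 probes of Mobp was 0.030 after normexp correction and 0.090 in the authors' table, and ran from -0.16 to 0.012 (without control replicate 3). The cause was not tested. With the replicate number as a block, 0 probes passed and 2763 had an unadjusted p under 0.05, 1 of them a myelin probe. In that fit the ratio of Mobp A_51_P291224 to A_55_P1958798 kept its difference of -0.51 (adjusted p = 0.290, limma). Same-numbered samples also shared a column of the slide. With each group centred, they correlated at -0.44, -0.28, -0.31 and 0.28, and differently numbered samples of the 2 groups at -0.42 to 0.45. As these values overlap, they cannot decide whether same-numbered samples were paired. All 13 myelin probes were well above background on 8 of 8 arrays.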
